A study of Gallus gallus with 12 samples.

Results

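The dorsal mesentery of the chick embryo has 4 compartments, and the genes described here are those that set the right mesenchyme apart from the other 3. They were chosen by the measured values themselves. A chicken probe set is a member where its lowest signal on the 3 right mesenchyme arrays exceeds its highest signal on the other 9 arrays, or where its highest lies below the lowest of the other 9. Of 37693 chicken probe sets, 594 (1.58%) were higher in this sense and 424 (1.12%) were lower. Because this very contrast selected the members, levels and differences between right mesenchyme and the rest are given as description, with no test.

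Leghorn embryos of about day 3.5 (Hamburger-Hamilton stage 21) were frozen, sectioned at 8 µm and cut by laser into right mesenchyme, left mesenchyme, right epithelium and left epithelium. The labels name no treatment and no altered gene in any group. Each compartment has 3 arrays, 1 from each of 3 biological experiments (n = 3 per compartment, 12 arrays), and the sections of an experiment were pooled for each compartment. RNA was amplified and labelled from 5 ng before hybridisation to a 1-colour Affymetrix array. The number of embryos pooled is not stated in the labels used here, so the spread between arrays is that between pools. Values are the authors' scaled MAS5 signal, a linear brightness that can be set against other arrays for 1 probe set but not between probe sets. Differences are on the scale of log2(signal + 16), which understates those of dim genes.

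The dorsal mesentery is the double-sided fold that holds the embryonic gut to the dorsal body wall. Its sides change shape differently while the midgut begins to rotate. On the left the mesenchyme packs more tightly under a tall epithelium, whereas on the right the mesenchyme becomes looser and the epithelium flattens. Gut mesenchyme is also the source of the visceral smooth muscle, and the mesentery carries the vessels and the nerve and immune cells that enter the gut.

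The mesenchyme label was set against 17 measured markers of that tissue. Their summed signal, to which VIM (vimentin) gave more than any other gene, was 61906 to 63303 in right mesenchyme, against 51074 to 54081 in left mesenchyme, 55420 to 56166 in right epithelium and 39764 to 45599 in left epithelium. PDGFRA, a receptor of mesenchymal cells, averaged 3828 ± 358 in right mesenchyme, 4141 ± 403 in left mesenchyme, 3067 ± 260 in right epithelium and 2757 ± 132 in left epithelium (SD, n = 3 each). Between 12 and 14 of the 17 were above the array floor in right mesenchyme, against 14 to 16 on the other arrays. None had a higher member probe set and NKX3-2 had a lower one. These shares were 0% and 5.88%, against 2.90% and 2.35% of all 13008 genes with a single symbol. Of the 17, 11 lay above 0 in the difference between right mesenchyme and the rest. The epithelial arrays held these markers too, and FOXF1, a factor of visceral mesenchyme, was below the array floor everywhere (2.02 ± 1.54 in right mesenchyme). That floor, between 19.3 and 39.6 signal units, is the 95th percentile of the 59 controls on an array that match nothing in the chicken. Right mesenchyme 3 and right epithelium 3 stood apart most, the SD of their residuals being 0.360 and 0.382 log2, where the others had 0.297 to 0.336. Without these 2 arrays the rule has fewer values to clear, and 1687 higher and 1181 lower members met it.

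Among higher members with a gene symbol and a mean signal above the filter of 47.4 units, GCHFR, MYL4 and C7 had the widest gaps between right mesenchyme and the rest. GCHFR, whose product restrains the enzyme that begins synthesis of the cofactor tetrahydrobiopterin, gave a signal of 1325, 1352 and 1223 in right mesenchyme, against 571, 611 and 569 in left mesenchyme, 543, 522 and 325 in right epithelium and 301, 389 and 219 in left epithelium. MYL4, an embryonic and atrial myosin light chain gene, gave 2949, 2903 and 2752 in right mesenchyme, against 1444, 1344 and 1219.9 in left mesenchyme, 1194, 1259.5 and 1256 in right epithelium and 365, 308 and 211 in left epithelium. C7, a gene of the terminal complement pathway, gave 1864, 1669 and 1563 in right mesenchyme, against 689, 695 and 701 in left mesenchyme, 491, 767 and 848 in right epithelium and 251, 269.5 and 355 in left epithelium. In all 3 genes the left mesenchyme and right epithelium lay near each other and the left epithelium was lowest on average. The mean difference between right mesenchyme and the other 9 arrays was 1.57 log2 (2.96-fold, pooled SD within compartments 0.28) for GCHFR, 1.85 log2 (3.60-fold, SD 0.20) for MYL4 and 1.68 log2 (3.21-fold, SD 0.25) for C7. The 3 GCHFR probe sets above the filter ranged from 0.36 to 1.57 log2. In laser-cut tissue, more cells of a type and more RNA per cell cannot be told apart.

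The next 3 in order of gap were ADAMTSL3, HTR2B and RXFP1. HTR2B, a serotonin receptor gene, read 978, 977 and 683 in right mesenchyme, against 347, 343 and 405 in left mesenchyme, 281, 379 and 208 in right epithelium and 171, 83.6 and 144 in left epithelium. RXFP1, the gene of the relaxin receptor, read 233, 249 and 286 in right mesenchyme, against 6.17 to 134 with a median of 64.6 on the other 9 arrays. ADAMTSL3, which encodes a secreted matrix glycoprotein related to the ADAMTS proteases, read 342, 283 and 316 in right mesenchyme, against 50.4, 127 and 47.3 in left mesenchyme, 75.4, 161 and 118 in right epithelium and 103, 112 and 78.8 in left epithelium. The lowest right mesenchyme array of ADAMTSL3 stood 0.76 log2 above the highest array elsewhere, and its 3 other compartments overlapped each other. RXFP1 was below the floor on 1 of the 9 other arrays, so its difference of 1.98 log2 rests partly on a dim reading.

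**Figure D1:**
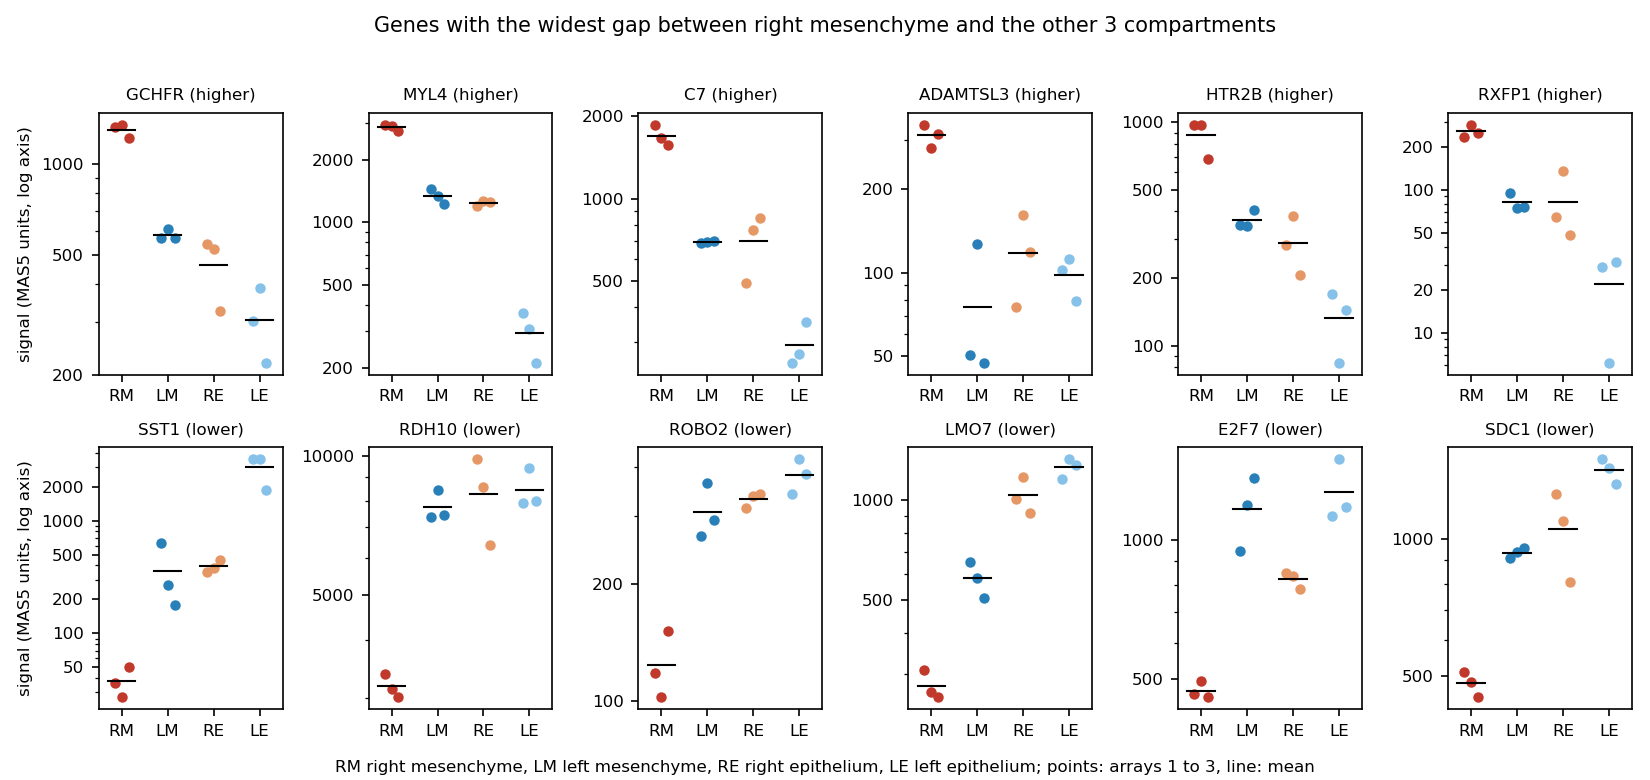
Signal (log axis) of the 6 named genes above the filter with the widest gap in each direction, for right mesenchyme (RM), left mesenchyme (LM), right epithelium (RE) and left epithelium (LE). Points are the 3 arrays of a compartment and lines are their means. The right mesenchyme points lie above all others in the upper row and below all others in the lower row, which is how the genes were chosen.

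SST1, the somatostatin gene, was the most depleted member. It read 36.6, 27.3 and 50.5 in right mesenchyme, against 635, 267 and 178 in left mesenchyme, 350.1, 379.7 and 450.2 in right epithelium and 3522, 3507 and 1871 in left epithelium. The difference was -3.77 log2, or 13.6-fold lower in right mesenchyme, and the left epithelium was far above every other compartment. RDH10, whose product oxidises retinol to retinal and so feeds retinoic acid synthesis, read 3385, 3139.6 and 3014 in right mesenchyme, against 7371, 8446 and 7427 in left mesenchyme, 9842, 8545 and 6405 in right epithelium and 7887, 9387 and 7979 in left epithelium. All 4 probe sets of RDH10 were members, with differences from -1.77 to -1.34 log2, and on the probe set read here the 3 other compartments overlapped. On another of the 4, RDH10 fell by 0.71 ± 0.16 log2 in left mesenchyme relative to left epithelium (limma adjusted p = 0.040), in the fit without right mesenchyme described below.

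ROBO2, a receptor gene for the Slit guidance proteins, read 102, 118 and 152 in right mesenchyme, against 266 to 420.2 with a median of 341 on the other 9 arrays. SDC1, which encodes the heparan sulfate proteoglycan syndecan 1, read 450.4, 486 and 513 in right mesenchyme, against 807 to 1504 with a median of 1095 on the other 9 arrays. LMO7, the gene of a junctional actin-associated protein, read 309, 265 and 256 in right mesenchyme, against 653, 584 and 509.9 in left mesenchyme, 1009.5, 1175 and 919 in right epithelium and 1162, 1333 and 1281 in left epithelium. For LMO7 the left mesenchyme lay between right mesenchyme and both epithelia, while ROBO2 differed little among the other compartments. Of the 5 ROBO2 probe sets above the filter on dim signals, 1 had a difference above 0, at 0.21 log2, and the lowest stood at -1.35 log2.

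Members close to the border carry little separation. Just inside the rule for higher members lay SLC12A7, CROT and TMEM131L, with gaps of 0.00026, 0.0039 and 0.0044 log2. Just outside lay another probe set of COL4A2, PDP1 and BBLN, with gaps of -9.4e-06, -0.0015 and -0.0021 log2. For lower members NDC80, ZNF704 and PSMA2 were just inside (0.00024, 0.00053 and 0.00079 log2) and ATRX, TRIAP1 and HAUS6 just outside (-0.00014, -0.00039 and -0.0013 log2). The median gap was 0.12 log2 among higher and 0.090 log2 among lower members, below the median SD of 0.26 log2 between right mesenchyme arrays. Only 35 higher and 18 lower members had a gap of at least 0.5 log2.

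Accounting for every member, 430 of the 594 higher probe sets carried a single gene symbol (377 genes), 4 carried several and 160 carried none. Of the 424 lower ones, 344 carried a single symbol (306 genes) and 80 carried none. At least 2-fold differences were seen in 184 higher and 92 lower members. Among the higher members 538 were above the floor on all 3 right mesenchyme arrays, and 20 were below it on all 3, so that their order has no meaning. Of the lower members 56 were below the floor on all 3, where only a bound exists. A filter on dim signals, at 47.4 units in the mean of the 12 arrays, was passed by 444 higher and 369 lower members. No gene had members in both directions. Other probe sets of member genes, above the same filter and not required by the rule, had a difference above 0 in 321 of 401 cases (80.0%) for higher genes and below 0 in 260 of 327 (79.5%) for lower genes. Over all 23058 chicken probe sets above the filter 51.6% were above 0. These probe sets were read on the same arrays and share the genes' transcripts, and the filter that admitted them includes the right mesenchyme values.

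In the compartment means, the left mesenchyme was the nearest neighbour of 310 higher members (52.2%), the right epithelium of 204 (34.3%) and the left epithelium of 80 (13.5%). For a higher member the nearest compartment is that with the highest mean besides right mesenchyme. Over all chicken probe sets the same compartments had the highest mean besides right mesenchyme in 36.3%, 33.9% and 29.8%. Lower members had the right epithelium nearest in 198 cases (46.7%), the left mesenchyme in 173 (40.8%) and the left epithelium in 53 (12.5%). Over all chicken probe sets the same compartments had the lowest mean besides right mesenchyme in 34.2%, 30.8% and 35.0%. Neither background is a share of nearness, because right mesenchyme can lie at any level in probe sets that are not members. In the chicken RefSeq annotation of assembly GRCg7b, 19 pairs of higher genes and 10 pairs of lower genes were direct neighbours among protein-coding genes. They included the paired collagen genes COL4A1 with COL4A2 and COL6A1 with COL6A2, HMOX1 with TOM1, WISP1 with SLA, LYVE1 with IRAG1, and CENPF with KCNK2. How many neighbouring pairs any gene set of this size would hold was not assessed, so the counts say nothing about clustering.

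**Figure D2:**
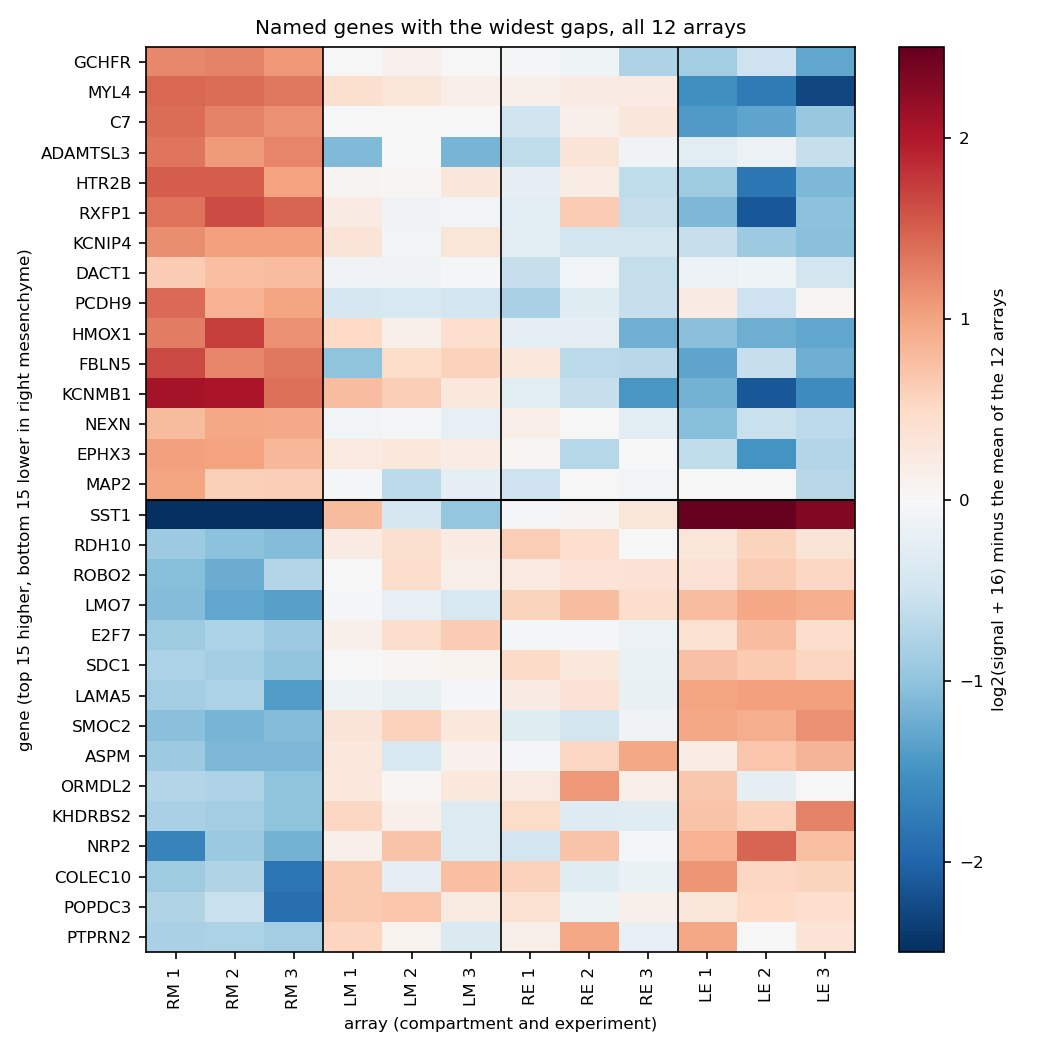
The 15 higher and 15 lower named genes with the widest gaps (rows) on the 12 arrays (columns), coloured by log2(signal + 16) minus the gene's mean over the 12 arrays, with values beyond 2.5 drawn in the end colours. Right mesenchyme arrays (RM) are leftmost, and for SST1 the left epithelium (LE) is as far above the mean as right mesenchyme is below it.

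A fit without the right mesenchyme arrays asked whether the members also differ by tissue layer on the left side or by side within the epithelium. It used limma on the 9 remaining arrays, with the experiment as a block, over 23063 probe sets and an adjusted p threshold of 0.05. Although no right mesenchyme value enters it, the rule did require all 9 arrays to lie on 1 side of the right mesenchyme. Of the 423 higher members tested, 43 rose in left mesenchyme relative to left epithelium and 0 fell, while 0.902% of all probe sets rose and 0.581% fell. Their median difference was 0.28 log2, against 0.0049 over all probe sets. In right relative to left epithelium 36 of the 423 rose and 0 fell, with a background of 1.14% and 0.876%, and the median was 0.23 log2 against -0.012 over all. At an unadjusted p under 0.05, 134 higher members rose and 1 fell in left mesenchyme, and 116 rose and 2 fell in right epithelium. The share of all probe sets at that threshold was not computed, so these unadjusted counts carry no weight. Between right epithelium and left mesenchyme 5 rose and 9 fell, with a background of 1.7% and 1.56%. The counts relative to left epithelium moved with the fit. Without the intensity trend in the variances 8 higher members passed in left mesenchyme and 12 in right epithelium, counted in either direction. Over all probe sets 80 and 140 passed.

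Lower members moved the opposite way in the same fit. Of 373 tested, 14 fell and 0 rose in left mesenchyme relative to left epithelium (median -0.22 log2). Of all probe sets 0.581% fell and 0.902% rose there. In right relative to left epithelium 17 fell and 1, TFPI2, rose (median -0.18 log2), with a background of 0.876% and 1.14%. At an unadjusted p under 0.05, 89 fell and 1 rose in the first comparison, and 99 fell and 5 rose in the second. Here too no share of all probe sets was computed at that threshold, so the unadjusted counts carry no weight. Without the trend 4 lower members passed in the first comparison and 3 in the second. Both comparisons share the left epithelium, so their counts are not independent of each other.

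**Figure D3:**
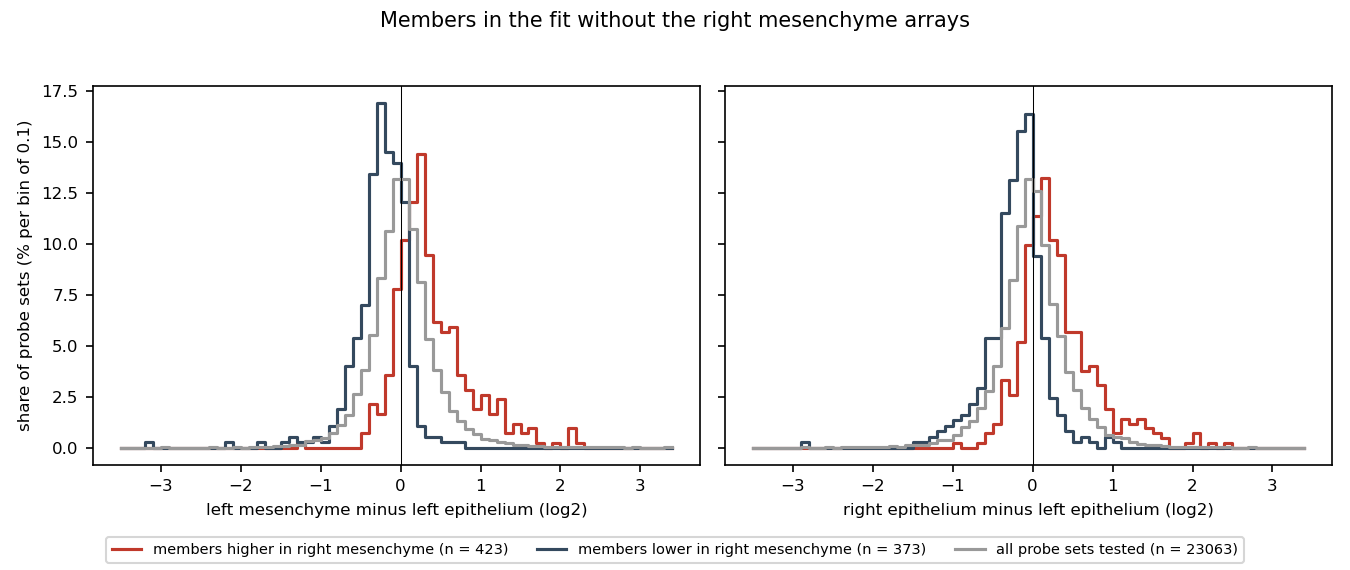
Distribution of log2 differences in the fit of the 9 arrays other than right mesenchyme, for higher members (n = 423), lower members (n = 373) and all probe sets tested (n = 23063), as the share of each set per bin of 0.1. Higher members have medians of 0.28 and 0.23 log2, and lower members of -0.22 and -0.18 log2.

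MYL4 and SST1, both from the widest gaps, were called in both comparisons. MYL4 rose by 2.15 ± 0.20 log2 in left mesenchyme (SE, limma adjusted p = 4.8e-05) and by 2.04 ± 0.20 log2 in right epithelium (adjusted p = 4.2e-05), each relative to left epithelium, and it was lowest on the left epithelium arrays. SST1 fell by 3.12 ± 0.31 log2 in left mesenchyme (adjusted p = 7.9e-05) and by 2.82 ± 0.31 log2 in right epithelium (adjusted p = 0.00012). C7 rose by 1.22 ± 0.23 and 1.20 ± 0.23 log2 (limma adjusted p = 0.012 and 0.011). Leaving out left mesenchyme 1 or 2 or left epithelium 1 or 2 ended its call in left mesenchyme (adjusted p up to 0.13), and leaving out left epithelium 2 or right epithelium 2 or 3 ended that in right epithelium (adjusted p up to 0.099). Without the intensity trend both C7 calls were lost too (adjusted p = 0.074 and 0.064). The calls of MYL4 and SST1 held without any single array and without the trend.

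Among the pathway lists, that of smooth muscle and the actomyosin cytoskeleton had the largest share of higher members. This list contains the contractile filaments and the proteins that link and regulate them. Of 20 measured genes, 7 had a higher probe set (35.0%, against 2.90% of all 13008 named genes) and 0 a lower one (2.35%), and the median difference was 0.31 log2 against 0.011. The lists were chosen with earlier results of these data known, so no share of a list given here is a test of enrichment. TPM1, a tropomyosin gene, read 7837, 7271 and 7782 in right mesenchyme, against 5488, 5696 and 5377 in left mesenchyme, 5753, 5270.4 and 5581 in right epithelium and 4112, 4995 and 4841 in left epithelium. CALD1, which encodes caldesmon, read 6687, 6958 and 7191 in right mesenchyme, against 3295 to 5761 with a median of 4264 on the other 9 arrays. Each of the 8 TPM1 probe sets and 4 CALD1 probe sets above the filter had a difference above 0. These counts include the member probe sets, whose sign the rule fixed.

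Among the thin-filament and cross-linking genes, ACTN1 (alpha-actinin) read 4172, 4248 and 4805 in right mesenchyme, against 2663 to 3544 with a median of 3301 on the other 9 arrays. MYH9, the gene of non-muscle myosin IIA, read 2916 to 3072 in right mesenchyme and 2041 to 2649 on the other arrays, a difference of 0.31 log2. CNN2, a calponin gene, read 914, 835 and 1642 in right mesenchyme, against 564, 663 and 427 in left mesenchyme, 516, 757 and 449 in right epithelium and 603, 634 and 446 in left epithelium, with right mesenchyme 3 far above its other arrays. TPM2 was a member by 0.032 log2 only, and it was not a member after quantile normalization. Neither CNN2 nor TPM2 remained a member with each array centred on its median. TAGLN (transgelin, a smooth muscle marker) was dimmer, at 91.4 ± 15.3 in right mesenchyme against 35.0 ± 2.85 in left mesenchyme, 36.0 ± 25.7 in right epithelium and 25.5 ± 10.9 in left epithelium.

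Other genes of the list overlapped between compartments. ACTA2, the smooth muscle actin gene, averaged 36.9 ± 25.0 in right mesenchyme, 9.38 ± 6.33 in left mesenchyme, 4.42 ± 5.37 in right epithelium and 16.4 ± 7.52 in left epithelium, at or near the floor. MYLK, the kinase of the regulatory myosin light chain, averaged 2075 ± 390 in right mesenchyme, 2216 ± 105 in left mesenchyme, 2194 ± 489 in right epithelium and 1629 ± 97.0 in left epithelium, with right mesenchyme inside the range of the rest. Outside the list, the widest-gap rule added KCNMB1, the smooth muscle subunit of a calcium-activated potassium channel, at 612, 594 and 371 in right mesenchyme, against 237, 209.9 and 163 in left mesenchyme, 108, 83.0 and 38.3 in right epithelium and 49.4, 17.9 and 33.5 in left epithelium. KCNMB1 was below the floor on right epithelium 3 and left epithelium 2, so its difference rests partly on dim readings. NEXN, an actin-filament gene, read 1022, 1142 and 1164 in right mesenchyme, against 272 to 664 with a median of 509 on the other 9 arrays. In the fit without right mesenchyme, read by brightest probe sets, 0 of 15 tested genes of the list passed between left mesenchyme and left epithelium (limma, 4 higher and 0 lower at an unadjusted p under 0.05). In right relative to left epithelium 1 rose, where 1.14% of all probe sets rose. The share of all probe sets at the unadjusted threshold was not computed, so the unadjusted counts carry no weight. Another CALD1 probe set, itself a member, rose in left mesenchyme by 0.52 ± 0.12 log2 (limma adjusted p = 0.037). KCNMB1, outside the list, rose there by 2.18 ± 0.38 log2 (limma adjusted p = 0.0074), a call that 3 single arrays could end (adjusted p up to 0.070). That call too rests on dim left epithelium readings.

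**Figure D4:**
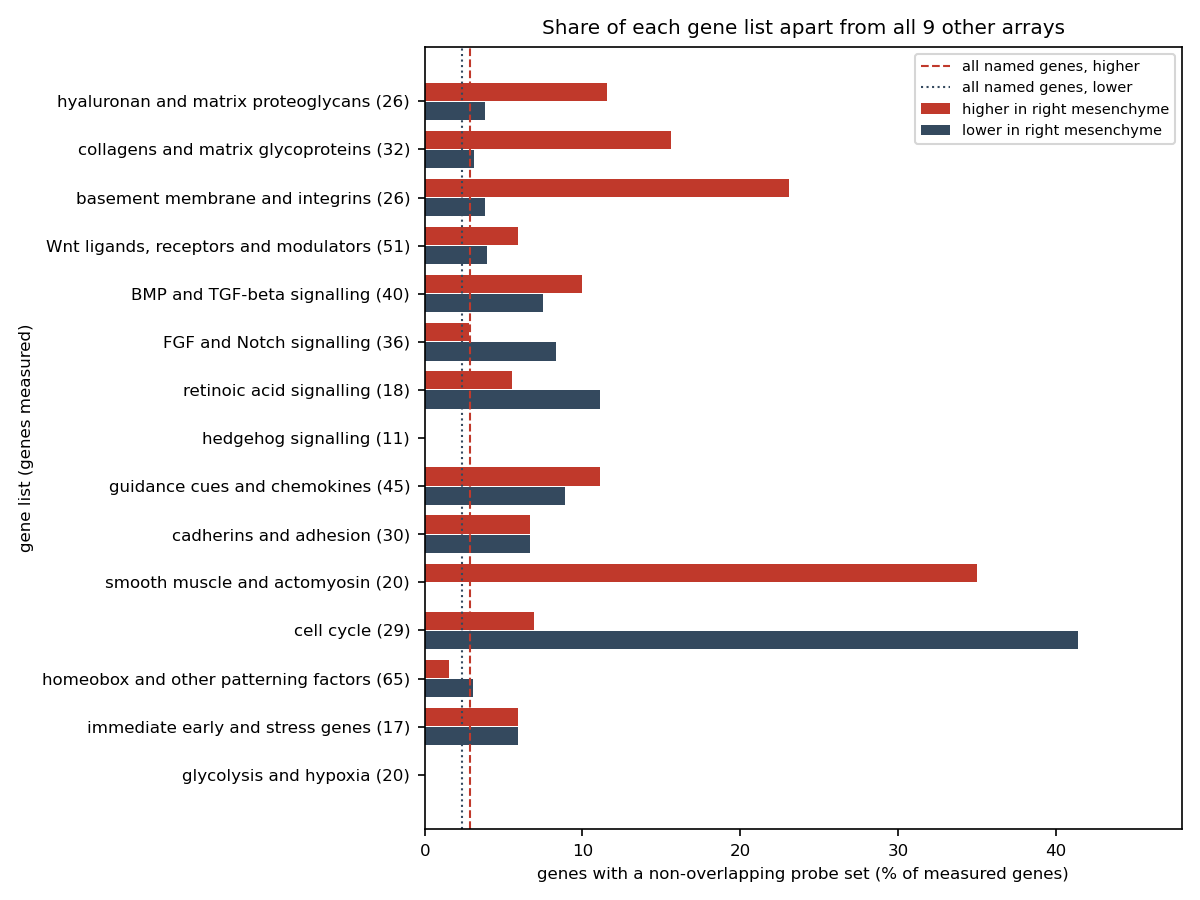
Percentage of the measured genes of each list with at least 1 probe set apart from all 9 other arrays, higher (red) or lower (dark) in right mesenchyme, with the shares over all 13008 named genes as lines. Numbers of measured genes are in parentheses. Actomyosin stands at 35.0% higher and cell cycle at 41.4% lower, and hedgehog and glycolysis genes have none. The lists were chosen with earlier results of these data known, so the shares are description only.

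The cell cycle list had the largest share of lower members. They drive DNA replication and mitosis. Of 29 measured genes, 12 had a lower probe set (41.4%, against 2.35% of all named genes) and 2 a higher one (6.90%, against 2.90%). The median difference was -0.46 log2, with 4 genes above 0. MKI67, a marker of dividing cells, read 2730.2, 2494 and 3017 in right mesenchyme, against 4253, 4769 and 4679 in left mesenchyme, 4337, 3519.7 and 3850.1 in right epithelium and 4408, 5317 and 5438 in left epithelium. E2F1, a transcription factor of the entry into S phase, read 1113, 1221 and 1503 in right mesenchyme, against 2293, 2284 and 2689 in left mesenchyme, 1777, 2394 and 1907 in right epithelium and 2704, 2470.2 and 2551 in left epithelium. Both were lower on every right mesenchyme array than on any other, and E2F7, an atypical factor of the same family picked by its gap, read 458, 464 and 496 in right mesenchyme, against 784 to 1502 with a median of 1129 on the other 9 arrays. The 2 E2F7 probe sets above the filter had unlike differences, of -1.14 and -0.10 log2.

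Replication genes among the 12 were PCNA, MCM5, RRM2 and TYMS. TYMS, which encodes thymidylate synthase, read 1038, 1124 and 1190.5 in right mesenchyme, against 1274 to 2504 with a median of 1876 on the other 9 arrays. MCM5, a subunit of the replicative helicase, read 436, 469.5 and 602 in right mesenchyme, against 658 to 1086 with a median of 688 on the other 9 arrays. RRM2, a ribonucleotide reductase subunit gene, read 6845 to 7919 in right mesenchyme and 8662 to 11689 on the other arrays, and PCNA, the sliding clamp gene, read 5249.8 to 6653 in right mesenchyme and 6912 to 11134 on the other arrays. The differences were -0.71, -0.67, -0.49 and -0.44 log2 in that order.

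Mitotic genes were TOP2A, KIF11, CENPE, CENPF, BUB1 and BUB1B. KIF11, a spindle motor gene, read 808, 841 and 876 in right mesenchyme, against 981 to 1476 with a median of 1307 on the other 9 arrays. CENPF, a kinetochore gene, read 416, 460.2 and 523 in right mesenchyme, against 595 to 1017 with a median of 769 on the other 9 arrays, and all 5 of its probe sets above the filter were below 0. BUB1B, a spindle checkpoint gene, read 5811 to 6566 in right mesenchyme and 6868 to 9588 on the other arrays. Their differences were -0.58, -0.74 and -0.38 log2. ASPM, a spindle pole gene, lay among the widest gaps at -1.40 log2, with all 6 of its probe sets above the filter below 0. The probe set counts of CENPF and ASPM include members, whose sign the rule fixed.

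The higher members of the list were CCND2, a D-type cyclin gene, and CDKN1B, which encodes the kinase inhibitor p27. CCND2 read 2393, 2441 and 2682 in right mesenchyme, against 1303 to 2203 with a median of 1810.3 on the other 9 arrays. CDKN1B read 523, 565 and 614 in right mesenchyme, against 288 to 517 with a median of 405 on the other 9 arrays. With each array centred on its median instead, TYMS, BUB1B, PCNA and CDKN1B were no longer members. The summed signal of the list was 59153 to 66940 in right mesenchyme, against 77684 to 82228 in left mesenchyme, 78179 to 80778 in right epithelium and 93348 to 99283 in left epithelium. This sum includes the genes that the rule chose as lower, so its low level in right mesenchyme is no separate reading. In the fit without right mesenchyme 0 of 28 tested genes passed between left mesenchyme and left epithelium (limma, 0 higher and 12 lower at an unadjusted p under 0.05, median -0.27 log2). In right relative to left epithelium 2 fell (median -0.32 log2), where 0.876% of all probe sets fell. The share of all probe sets at the unadjusted threshold was not computed, so the unadjusted counts carry no weight.

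**Figure D5:**
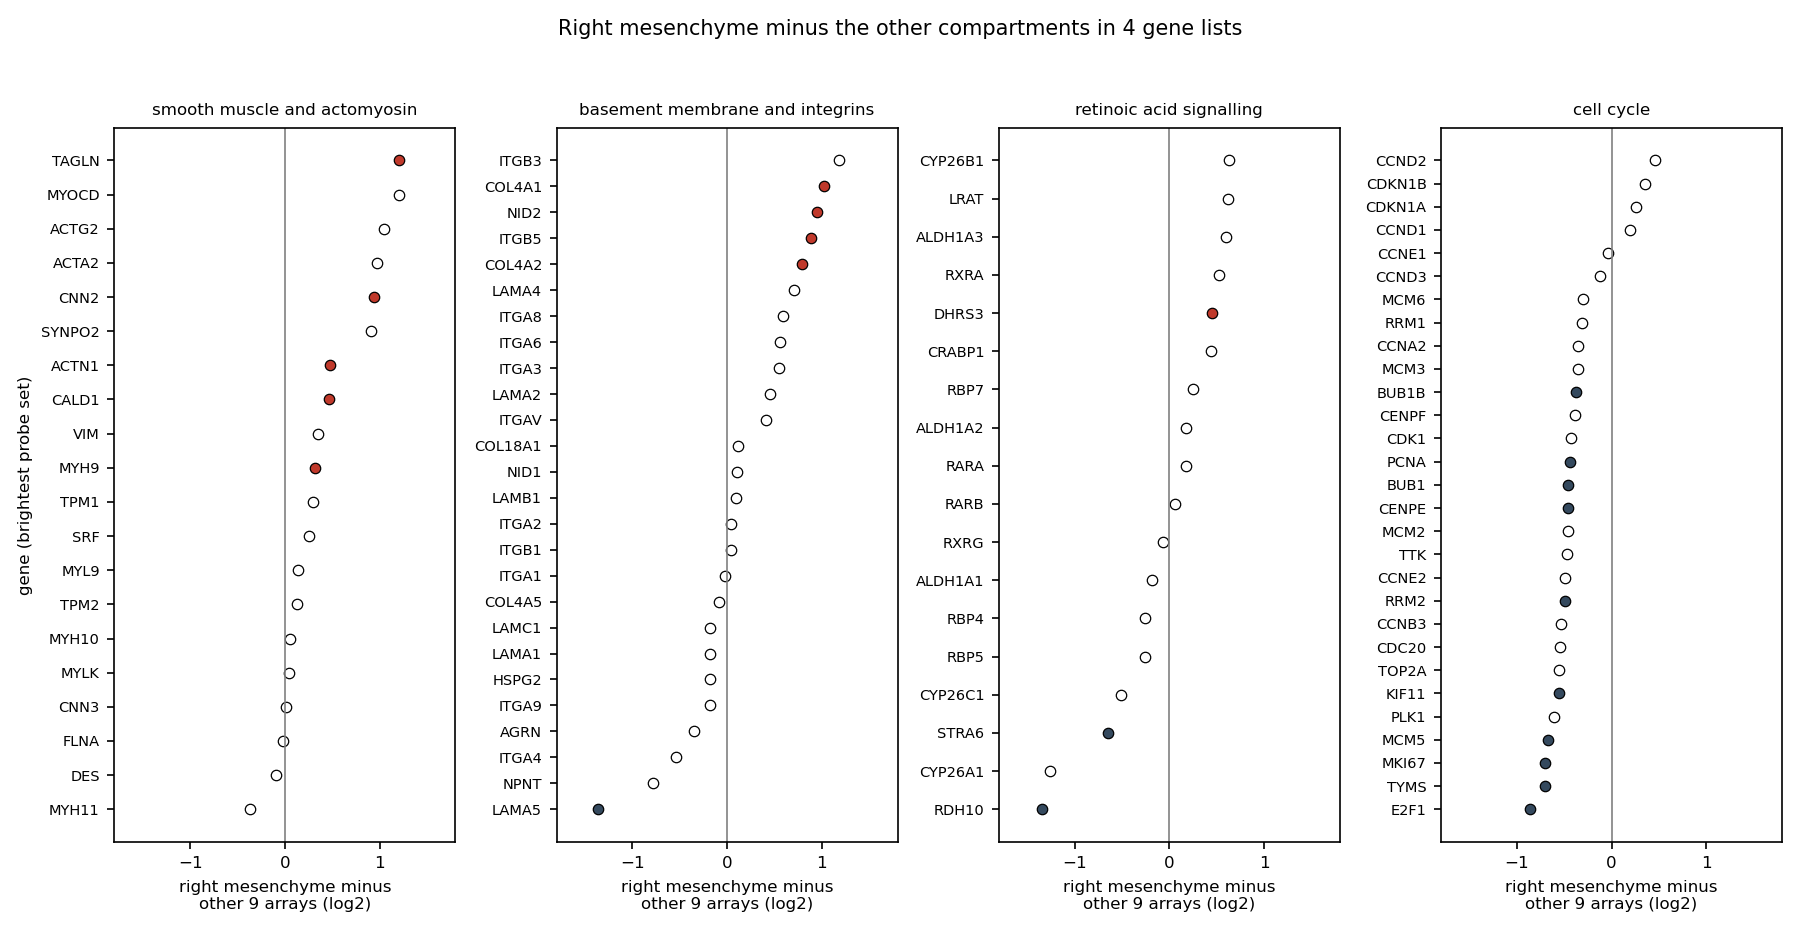
Mean log2 difference between right mesenchyme and the other 9 arrays for each measured gene of 4 lists, by its brightest probe set. Filled points are members (red higher, dark lower) and open points are probe sets that overlap. Of the 29 cell cycle genes 25 lie below 0, and RDH10 and LAMA5 are lowest in their lists.

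The basement membrane is the sheet of matrix under epithelia and around vessels and muscle, and integrins are receptors that bind cells to it and to other matrix. Of 26 measured genes of these 2 groups together, 6 were higher (23.1%, against 2.90% of all named genes) and 1 was lower (3.85%, against 2.35%). Their summed signal was 62662 to 64732 in right mesenchyme and 62834 to 66243 in right epithelium, against 54225 to 58560.5 in left mesenchyme and 55039 to 56282 in left epithelium. COL4A1, a chain of type IV collagen, read 1017, 819 and 888 in right mesenchyme, against 459, 396 and 587 in left mesenchyme, 483, 649 and 673 in right epithelium and 265, 367 and 255 in left epithelium. NID2, which encodes the linker nidogen 2, read 434, 498 and 532 in right mesenchyme, against 155 to 334 with a median of 279.7 on the other 9 arrays. LAMA5, the chain of an epithelial laminin, went the other way with 541, 570.3 and 371 in right mesenchyme, against 915, 881 and 984 in left mesenchyme, 1162, 1301 and 876 in right epithelium and 2013, 2071 and 2063 in left epithelium. All 5 COL4A2 probe sets above the filter were above 0, a count that includes any members, whose sign the rule fixed. LAMA2, a laminin chain gene of muscle, was a member by 0.018 log2 only. The named probe sets of COL4A2 and LAMA2 passed that filter only with the right mesenchyme arrays counted in.

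ITGB5, the gene of an integrin subunit for vitronectin, read 1453, 1610.0 and 1628 in right mesenchyme, against 444 to 1126 with a median of 954 on the other 9 arrays. In the fit without right mesenchyme, LAMA5 fell by 1.13 ± 0.18 log2 in left mesenchyme (limma adjusted p = 0.0038) and by 0.89 ± 0.18 log2 in right epithelium (adjusted p = 0.015), both relative to left epithelium. The second call ended without right epithelium 3 or any 1 left epithelium array (adjusted p up to 0.11), and both ended without the intensity trend (adjusted p = 0.076 and 0.13). COL4A1 had no call in that fit.

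Interstitial matrix was represented by 5 higher genes and 1 lower gene of 32 collagens and glycoproteins. These shares were 15.6% and 3.1%, against 2.90% and 2.35% of all named genes. A gene with more probe sets has more ways to hold a member. By probe set 6 of 105 were higher, against 430 of 27166 over all named genes. The summed signal was 75040 to 80549 in right mesenchyme and 74263 to 80713 in right epithelium, against 63018 to 66125 in left mesenchyme and 58286.5 to 62570 in left epithelium. FBLN5, which encodes the elastic-fibre protein fibulin 5, read 162, 174 and 226 in right mesenchyme, against 14.6 to 98.7 with a median of 32.3 on the other 9 arrays, and 4 of the other 9 arrays were below the floor. FBLN5 passed the filter on dim signals only with the right mesenchyme arrays counted in. COL6A1, a chain of the pericellular type VI collagen, read 1234, 1248 and 1617 in right mesenchyme, against 502 to 956 with a median of 669 on the other 9 arrays. THBS1, the thrombospondin 1 gene, read 543, 566 and 938 in right mesenchyme, against 65.4 to 507 with a median of 267 on the other 9 arrays. COL14A1, a fibril-associated collagen gene, was lower, at 37.8, 70.8 and 76.0 in right mesenchyme, against 83.1 to 256 with a median of 206 on the other 9 arrays. SMOC2, a secreted calcium-binding matrix gene, was lower too, at 549.7, 508 and 533 in right mesenchyme, against 1445, 1723 and 1379 in left mesenchyme, 929, 830.3 and 1079.6 in right epithelium and 2269, 2164 and 2567 in left epithelium.

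SMOC2 fell by 1.29 ± 0.17 log2 in right relative to left epithelium in the fit without right mesenchyme (limma adjusted p = 0.00053), a call that held without any single array and without the trend. Of the 26 hyaluronan and proteoglycan genes, CD44, LYVE1 and CEMIP were higher, which encode 2 hyaluronan receptors and a protein needed for hyaluronan breakdown. The shares of the list were 11.5% higher and 3.85% lower, against 2.90% and 2.35% of all named genes. Of the 26 genes 14 had a difference above 0. Their summed signal was 15276 to 17989 in right mesenchyme, against 24539 to 27044 in left mesenchyme, 10772 to 12394 in right epithelium and 19377 to 20541 in left epithelium. CD44 read 238, 201 and 285 in right mesenchyme, against 139, 81.2 and 121 in left mesenchyme, 87.1, 18.6 and 2.77 in right epithelium and 45.1, 80.6 and 5.39 in left epithelium. It was below the floor on right epithelium 2 and 3 and on left epithelium 3. LYVE1 read 209.5, 261 and 436 in right mesenchyme, against 59.8 to 169 with a median of 92.3 on the other 9 arrays, and CEMIP was a member by 0.0075 log2 only. CEMIP passed the filter only with the right mesenchyme arrays counted in. HMMR, a hyaluronan-binding protein gene that is also mitotic, was lower at 942 to 966 in right mesenchyme and 1083 to 1497 on the other arrays.

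Of 51 measured Wnt pathway genes, 3 had a higher probe set (5.88%, against 2.90% of all named genes) and 2 a lower one (3.92%, against 2.35%). Of the ligands, WNT5A was lower at 410.1, 433 and 445 in right mesenchyme, against 498 to 1091 with a median of 710.2 on the other 9 arrays, but 2 of its 4 probe sets above the filter were above 0. Of the receptors, LRP6 was higher at 465, 468 and 511 in right mesenchyme, against 44.4 to 353 with a median of 240.1 on the other 9 arrays. The 3 LRP6 probe sets above the filter ranged from 0.063 to 1.27 log2. LGR5, a receptor for R-spondins, was higher at 84.7 to 136 in right mesenchyme and 19.4 to 76.4 on the other arrays. FZD4 was lower at 734, 867 and 1019 in right mesenchyme, against 1184 to 2172 with a median of 1598 on the other 9 arrays. WISP1, a secreted matricellular protein gene known as a Wnt target, read 400.0, 758 and 815 in right mesenchyme, against 179, 72.1 and 203 in left mesenchyme, 170.5, 267 and 220.1 in right epithelium and 95.8, 30.2 and 109 in left epithelium. DACT1, which encodes a Dishevelled-binding regulator of the pathway and was picked by its gap, read 1796, 1927 and 1975 in right mesenchyme, against 1069, 1082 and 1128 in left mesenchyme, 758, 1090.5 and 752 in right epithelium and 1033, 1064 and 826 in left epithelium, and its other compartments lay close together.

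For BMP and TGF-beta signalling, 4 of 40 genes were higher (SMAD6, BAMBI, BMPER and LTBP2) and 3 lower (CHRDL1, INHBB and LTBP1). These shares were 10% and 7.5%, against 2.90% and 2.35% of all named genes. SMAD6, an intracellular inhibitor gene, read 9801, 8899 and 9822 in right mesenchyme, against 4535, 3994 and 5083 in left mesenchyme, 6363, 8225 and 7009.9 in right epithelium and 3607, 4945 and 3812 in left epithelium. BAMBI, a pseudoreceptor gene, read 9896, 8317 and 9220.4 in right mesenchyme, against 8218, 6498 and 7328 in left mesenchyme, 6117, 6186 and 4556 in right epithelium and 4627, 4501 and 3819 in left epithelium, so the left mesenchyme array 1 lay just under the lowest right mesenchyme array. BMPER, a secreted BMP-binding protein gene, was a member by 0.0048 log2 only and not after quantile normalization. Neither SMAD6 nor BAMBI remained a member with arrays centred on their medians.

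Among the extracellular regulators, CHRDL1, a chordin-like antagonist gene, was lower at 121, 139 and 161 in right mesenchyme, against 167 to 641 with a median of 341 on the other 9 arrays. LTBP1, which encodes a latent TGF-beta binding protein, was lower at 4292, 4076 and 4870.1 in right mesenchyme, against 6912, 7916 and 9238 in left mesenchyme, 5224, 5976 and 6628 in right epithelium and 12031, 11215 and 11786 in left epithelium, and all 5 of its probe sets above the filter were below 0. The probe set count of LTBP1 includes its members, whose sign the rule fixed. In the fit without right mesenchyme, SMAD6 rose by 0.81 ± 0.13 log2 in right relative to left epithelium (limma adjusted p = 0.0046, and 0.054 without right epithelium 2 or 0.17 without the trend). BAMBI rose by 0.76 ± 0.12 log2 in left mesenchyme relative to left epithelium (limma adjusted p = 0.0037, and 0.051 without left mesenchyme 3 or 0.18 without the trend). LTBP1 fell by 0.98 ± 0.10 log2 in right relative to left epithelium (adjusted p = 6.3e-05), which held without any single array but not without the trend (adjusted p = 0.069).

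Of 18 measured retinoic acid genes, 1 had a higher probe set (5.56%, against 2.90% of all named genes) and 2 a lower one (11.1%, against 2.35%). RDH10, described above, and STRA6, the gene of a retinol uptake receptor, were lower, and DHRS3, whose product turns retinal back to retinol, was higher. STRA6 read 359, 370.3 and 399 in right mesenchyme, against 427 to 1017 with a median of 591 on the other 9 arrays. DHRS3 read 2510.5, 2563 and 2716 in right mesenchyme, against 1502 to 2493 with a median of 1852 on the other 9 arrays, a gap of 0.01 log2 that was lost with arrays centred on their medians. ALDH1A2, which makes retinoic acid from retinal, lay within the range of the rest at 10406 ± 629 in right mesenchyme, 6193 ± 794 in left mesenchyme, 14271 ± 996 in right epithelium and 8838 ± 902 in left epithelium. CYP26A1, which degrades retinoic acid, was lowest on average in right mesenchyme but overlapped the rest, at 543 ± 181 in right mesenchyme, 1475 ± 202 in left mesenchyme, 795 ± 135 in right epithelium and 1788 ± 211 in left epithelium.

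Of the 36 FGF and Notch genes, the receptor gene FGFR2 was higher (2.78%, near the 2.90% of all named genes). FGF13, FGF18 and NOTCH1 were lower (8.33%, against 2.35%). The 3 probe sets of FGF13 above the filter disagreed, with differences from -0.97 to 0.73 log2. FGFR2 read 6443, 5589 and 6059.9 in right mesenchyme, against 3826, 3691 and 4309 in left mesenchyme, 3526, 4013 and 4237 in right epithelium and 2532, 2619 and 2203 in left epithelium, and all 4 of its probe sets above the filter were above 0. The probe set count of FGFR2 includes its members, whose sign the rule fixed. FGF18, a secreted ligand gene, read 25.1, 58.3 and 74.8 in right mesenchyme, against 87.0 to 354 with a median of 149 on the other 9 arrays, with 1 right mesenchyme array below the floor. NOTCH1 read 23.2, 68.6 and 77.2 in right mesenchyme, against 90.0 to 228 with a median of 125 on the other 9 arrays, also with 1 right mesenchyme array below the floor. The 2 NOTCH1 probe sets above the filter had differences of -1.16 and -0.28 log2. FGFR2 rose by 0.68 ± 0.13 log2 both in left mesenchyme and in right epithelium relative to left epithelium (limma adjusted p = 0.015 and 0.012). The first call ended without left mesenchyme 1 or 3 or left epithelium 2 or 3 (adjusted p up to 0.13), and the second without left epithelium 3 or right epithelium 2 or 3 (adjusted p up to 0.11). Without the trend neither passed (adjusted p = 0.22 and 0.19).

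Guidance genes held 5 higher (11.1%, against 2.90% of all named genes) and 4 lower members (8.89%, against 2.35%) of 45. SEMA5A, a transmembrane semaphorin gene, read 3513, 3298 and 3197 in right mesenchyme, against 1239, 998 and 1629 in left mesenchyme, 1819.8, 2274 and 2228 in right epithelium and 1016, 755 and 639 in left epithelium, with all 5 probe sets above the filter above 0. The probe set count of SEMA5A includes its members, whose sign the rule fixed. EPHA7, an ephrin receptor gene, read 4022, 4110.2 and 4220.4 in right mesenchyme, against 1909 to 3559 with a median of 2613 on the other 9 arrays. NRP2, a co-receptor gene for semaphorins and VEGF-C, was lower at 167, 288 and 240.3 in right mesenchyme, against 619, 938 and 445 in left mesenchyme, 402, 941 and 543 in right epithelium and 1053, 1578 and 969 in left epithelium. UNC5C, a netrin receptor gene, was higher by 0.64 log2, and ROBO1 was lower by 0.33 log2 on 1 probe set while 3 of its 6 probe sets above the filter were above 0. In right relative to left epithelium SEMA5A rose by 1.39 ± 0.22 log2 (limma adjusted p = 0.0026), a call that held without any single array but not without the trend (adjusted p = 0.090). Another higher SEMA5A probe set rose there too, by 1.20 ± 0.28 log2 (adjusted p = 0.037). A further one was not called there (adjusted p = 0.083) but rose in left mesenchyme relative to left epithelium, by 2.24 ± 0.44 log2 (adjusted p = 0.017).

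Of 65 measured patterning factors, 1 had a higher probe set (1.54%) and 2 a lower one (3.08%), shares near the 2.90% and 2.35% of all named genes. FOXP2, a forkhead gene, read 1047, 1082 and 1096 in right mesenchyme, against 443 to 888 with a median of 672 on the other 9 arrays. MAB21L1 read 74.3, 81.1 and 114 in right mesenchyme, against 143 to 299 with a median of 191 on the other 9 arrays. NKX3-2, a homeobox gene of splanchnic and axial mesoderm, read 30.5, 6.44 and 27.5 in right mesenchyme, against 82.4, 95.7 and 98.1 in left mesenchyme, 42.8, 56.4 and 89.4 in right epithelium and 151, 181 and 149 in left epithelium, below the floor on 2 right mesenchyme arrays. Of 30 cadherin and adhesion genes PCDH9 and CDH10 were higher and CDH2 and CDH19 lower, 6.67% in each direction. PCDH9, a protocadherin gene with 4 of 4 probe sets among the members, read 1087, 734 and 807 in right mesenchyme, against 293, 296 and 279.6 in left mesenchyme, 221, 319 and 259 in right epithelium and 459, 273 and 409 in left epithelium, and CDH2 (N-cadherin) was a member by 0.0013 log2 only, which quantile normalization ended. None of 11 hedgehog and 20 glycolysis genes was a member.

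Markers of other cells that a laser cut can include were measured beside these results, and their part in them was not tested. Of 11 coelomic epithelium markers PODXL and EPCAM were lower (18.2%, against 2.35% of all named genes). PODXL, the gene of a sialomucin of epithelia and podocytes, read 514, 569 and 447 in right mesenchyme, against 683, 781 and 972 in left mesenchyme, 4194, 3644 and 5616 in right epithelium and 3931, 3384 and 3279 in left epithelium, and both mesenchymal compartments lay far below the epithelia. In the fit without right mesenchyme PODXL fell by 2.11 ± 0.16 log2 in left mesenchyme relative to left epithelium (limma adjusted p = 8.0e-06), with no single array ending the call. The summed signal of the 11 markers was 23200 to 25590 in right mesenchyme, against 17637 to 19760 in left mesenchyme, 36534 to 38035 in right epithelium and 27380 to 29175 in left epithelium.

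The 19 endothelial markers summed to 5470 to 5935 in right mesenchyme, against 13010 to 14337 in left mesenchyme, 2154 to 2894 in right epithelium and 1964 to 3663 in left epithelium. TEK, the receptor gene for angiopoietins, was the only member among them (5.26% higher and 0% lower, against 2.90% and 2.35% of all named genes). TEK read 925, 1383 and 1071 in right mesenchyme, against 771, 903 and 786 in left mesenchyme, 437, 681 and 439 in right epithelium and 255, 601 and 364 in left epithelium. CDH5 (VE-cadherin), which defines endothelium, averaged 805 ± 29.3 in right mesenchyme, 3491 ± 251 in left mesenchyme, 214 ± 58.5 in right epithelium and 345 ± 164 in left epithelium. TEK thus stood in an order of compartments that CDH5 did not share. ANGPT1, a ligand gene of TEK, read 611, 615 and 679 in right mesenchyme, against 240.4 to 572 with a median of 446 on the other 9 arrays and was lost from the members with arrays centred on their medians.

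EDNRB, an endothelin receptor gene of neural crest and other mesenchymal cells, read 1534, 1019 and 1067 in right mesenchyme, against 737, 682 and 812 in left mesenchyme, 927, 809 and 882 in right epithelium and 303, 227 and 467 in left epithelium. The neuronal genes of the same list went opposite ways, with STMN2 higher and ELAVL4 lower. Of the 10 measured genes of that list 2 were higher (20%, against 2.90% of all named genes) and 1 lower (10%, against 2.35%). STMN2 was dim, with a difference of 0.76 log2, a gap of 0.13 log2 and readings above the floor on 6 of the other 9 arrays. ELAVL4 read 1178, 1374 and 1455 in right mesenchyme, against 1459.8 to 2667 with a median of 1877 on the other 9 arrays, and it was lost from the members with arrays centred on their medians. The 10 neural crest and enteric neuron markers summed to 4901 to 5726 in right mesenchyme, against 6295 to 6962 in left mesenchyme, 4045 to 4768 in right epithelium and 4461 to 4907 in left epithelium. DAZL, a germ cell gene, was lower at 2772, 2869 and 3287 in right mesenchyme, against 3539 to 5450.0 with a median of 4249 on the other 9 arrays. It was the only member of the 6 germ cell markers (16.7% lower and 0% higher, against 2.35% and 2.90% of all named genes). The 6 germ cell markers summed to 4671 to 5578 in right mesenchyme, against 5609 to 9472 on the other arrays. DAZL, chosen by the rule, makes up much of that sum, which is therefore no separate reading. Of the 6 markers 0 had a difference above 0, and the median was -0.53 log2. The 9 blood cell markers held no member and summed to 53174 to 61136 in right mesenchyme, against 19569 to 72215 on the other arrays. Of 10 endoderm markers, EPCAM alone was lower (10%, against 2.35% of all named genes). Their sum, which includes EPCAM, was 4784 to 5202 in right mesenchyme against 6101 to 8421 elsewhere. The median difference of the 10 was only -0.17 log2, with 4 above 0, and 6 to 7 were above the floor in right mesenchyme. RNA integrity, as the 3 prime minus 5 prime signal of GAPDH, was 1.11 to 1.28 log2 in right mesenchyme, within the 0.947 to 1.58 log2 of the other arrays.

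HMOX1, the gene of the haem-degrading enzyme that macrophages express strongly, read 874, 1197 and 795 in right mesenchyme, against 499.7, 385 and 477 in left mesenchyme, 293, 299 and 144 in right epithelium and 162, 142 and 134 in left epithelium. HSP90AA1, a chaperone gene, was lower at 9324 to 9812 in right mesenchyme and 10635 to 14034 on the other arrays. HMOX1 and HSP90AA1 were the only members of 17 measured immediate early and stress genes. That is 5.88% in each direction, against 2.90% higher and 2.35% lower of all named genes. A list of 37 measured macrophage and other white blood cell genes was written after the members were seen and partly from them. Neither its share of members nor the height of its summed signal in right mesenchyme therefore carries weight. Its summed signal was 15594 to 17587 in right mesenchyme, against 10129 to 12519 in left mesenchyme, 7726 to 9478 in right epithelium and 5855 to 7050 in left epithelium. SPI1, a higher member that encodes the myeloid factor PU.1, averaged 483 ± 71.7 in right mesenchyme, 299 ± 23.7 in left mesenchyme, 88.0 ± 29.4 in right epithelium and 59.6 ± 27.2 in left epithelium. LAPTM5, also a higher member and a lysosomal gene of blood-forming cells, averaged 778 ± 139 in right mesenchyme, 562 ± 101 in left mesenchyme, 197 ± 45.9 in right epithelium and 122 ± 49.7 in left epithelium. CSF1R, the macrophage growth factor receptor gene, was no member, at 719 ± 34.4 in right mesenchyme, 552 ± 152 in left mesenchyme, 177 ± 70.6 in right epithelium and 169 ± 54.2 in left epithelium. All 3 were high in both mesenchymal compartments and low in both epithelia, and the part of such cells in the results above was not tested.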

How the data were processed

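Right mesenchyme, left mesenchyme, right epithelium and left epithelium were each measured on 3 Affymetrix arrays. The authors deposited linear intensity values, made with MAS5 in GCOS per the submitters' processing notes, and the values show a common scaling of every array (trimmed mean 500.11 to 500.12). The number of arrays limits the precision. Scaling was kept, 16 was added and log2 taken. Genes were named from the platform annotation of 2016, which gave 1 symbol to 27166 of 37693 chicken probe sets, several to 177 and none to 10350. The gene identifiers of 26726 of them stood among the protein-coding genes of the chicken RefSeq table (GRCg7b), and 0 symbols changed. No genome build is stated for the array in the labels. Probe sets can read more than 1 transcript of a gene or close relatives.

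The members were found with Python 3.11.15, and limma 3.58.1 in R 4.3.3 fitted the 9 arrays other than right mesenchyme (compartment and experiment as fixed terms, an intensity trend in the variances, and 4 residual plus 10.43 prior degrees of freedom). Probe sets with a mean over these 9 arrays above the 40th percentile were tested, two-sided, with Benjamini-Hochberg adjustment over all 23063. With 3 arrays a group, an exact permutation test could not reach a p under 0.1. The 2 scripts that select and test were tested on simulated data. The replicate number was read as the experiment, since the series text has every experiment yield all compartments. Deviations from the compartment means correlated at -0.063 to 0.105 (mean 0.021) across 18 same-numbered pairs. Across 36 pairs of different experiment and compartment they correlated at -0.073 to 0.057 (mean -0.010), so the values show little shared deviation within an experiment.

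Named genes are, per direction, the 15 members with 1 symbol, a mean above the 40th percentile and the widest gap, plus every such member of 24 lists (613 genes) of pathways and cell type markers. Lists were read by the brightest probe set of a gene, except for counts of members, which use all its probe sets. Members and lists were chosen with earlier results of these data known, and the list of white blood cells was added after the members were seen. Genes outside this rule are named where the text says so, as border cases, or as markers. Alternatives were quantile normalization, centring on array medians, other pseudocounts and filters, no intensity trend, no block, all 12 arrays, a required gap, and leaving out arrays or experiments. The MAS5 detection calls and sequences were not used here.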

Additional observations from a re-analysis of the deposited data

How the results depend on the processing

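The numbers of members depended mostly on how many arrays the rule must clear and on the gap asked for. A gap of at least 1 log2 left 1 higher and 2 lower members. Comparing right mesenchyme with the other compartments within each experiment (replicate block) gave 1396 higher and 1080 lower members, and leaving out right mesenchyme 3 and right epithelium 3 together, chosen after seeing the data, gave 1687 and 1181. Leaving out single arrays or an experiment gave 636 to 2326 higher and 470 to 1759 lower members, counts that can only grow as values to clear are removed. Quantile normalization retained 512 of the 594 higher and 390 of the 424 lower members, and centring each array on its median retained 420 and 358. Of the named genes quantile normalization ended the membership of 3 higher (TPM2, LTBP2, BMPER) and 2 lower genes (ROBO1, CDH2), and centring that of 9 higher and 4 lower genes. In the fit without right mesenchyme, but also without the intensity trend, 80 probe sets passed for left mesenchyme minus left epithelium (8 higher and 4 lower members), 140 for right epithelium minus left epithelium (12 and 3) and 391 for right epithelium minus left mesenchyme. Leaving out arrays or an experiment gave 100 to 439 (7 to 51 higher and 7 to 16 lower members), 149 to 440 (10 to 32 and 6 to 17) and 360 to 869. Of the 33 calls of named genes 24 were lost without the trend and 14 to 23 without an experiment, and the causes were not tested. Without the experiment as a block the counts were 357, 463 and 786 against 342, 464 and 751 with it, and 2 calls of named genes were lost (NRP2 in right epithelium minus left epithelium, adjusted p = 0.14, and TEK in left mesenchyme minus left epithelium, adjusted p = 0.073). The differences of named genes between right mesenchyme and the rest kept their sign under quantile normalization, other pseudocounts and the loss of single arrays. With other pseudocounts or lost arrays the rule itself fixes the sign, so those runs carry no weight. Centring and the loss of an experiment were not run for these differences. The floor limits 56 lower members, whose right mesenchyme values are only bounds, and with 3 arrays a compartment most gaps lie within the spread between arrays.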
